A study of Mus musculus with 6 samples.

Results

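Mest, an imprinted gene of the fat lineage, was set beside 9 genes of the imprinted gene network, Peg3, Dlk1, Cdkn1c, Plagl1, Meg3, Peg10, Sgce, Ndn and Copg2, to ask whether it moved alone between cells that bind much and cells that bind little of the ligand FcsFNDC4. These 10 genes are 10 of the 19938 genes that had their own transcript cluster on the array, a cluster being a group of probes read together, and each had exactly 1 such cluster. Mest was taken up because it was known to differ in this very comparison, and the other genes were named as its network, also with results of these arrays known. All differences of the 10 genes are therefore given as a description, with standard errors and without p-values. The gene lists used below were also written with earlier results of these arrays known, so their counts and p-values are descriptions as well. H19, a further gene of the network, was not matched to a cluster and is not analysed here.

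The cells were immortalized stromal vascular preadipocytes of inguinal white fat, taken from male 129SVE mice. FcsFNDC4 is the soluble part of FNDC4 fused to a human Fc tail, and cells were stained with it and sorted for strong binding (high binding cells, HBC) or weak binding (low binding cells, LBC) over 20 rounds, up to passage 20. All cells of both groups went through staining, sorting and expansion in the same medium, and there was no group of unsorted cells. Each group was 1 sorted population that was measured in 3 technical replicates on 6 Affymetrix mouse gene arrays in all, so standard errors and p-values cover the spread between arrays and leave out the spread between independent sorts. The titles, descriptions and phenotypes of all arrays gave 3 HBC and 3 LBC replicates, but for LBC replicates 2 and 3 the source name says HBC. Arrays were grouped by title, and the log2 differences of the 10 genes and of the genes called are also given with LBC replicate 1 alone, where the lone LBC array is assumed to vary like the HBC arrays. Across genes, which are no independent replicates, 2 arrays of the same group had r of 0.996 to 0.999 and 2 arrays of different groups had r of 0.980 to 0.986.

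Intensities were deposited on a linear scale, and differences were fitted with limma on log2(intensity + 16), which makes the differences of dim genes smaller. The log2 difference below is HBC minus LBC on that scale, with its standard error (SE). Calls required a fold above 1.5, which is 0.58 on the log2 scale. They also required an adjusted p under 0.05 after Benjamini-Hochberg adjustment over all 19938 genes. Over all genes, 2.54% were called higher and 1.13% lower, and counts of called genes below are read beside these shares. Counts at an unadjusted p under 0.05 have no such share, because it was not computed over all genes. It is no smaller than the share at the adjusted p and any fold, 6.93% higher and 11.4% lower. The middle of the range was close to no difference, with a median log2 difference of -0.07 over all genes. Olfactory receptor genes served as a reference for dim signal, though whether these cells express some of them was not tested. The mean intensity of 1015 such genes ran from 13.9 to 84.5 between the 10th and 90th percentile. Probes of different genes differ in brightness, so levels are compared between groups and never between genes. In pooled RNA, fewer expressing cells and less RNA per cell cannot be told apart.

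Imprinted genes are read from the maternal or the paternal copy alone. The copies are told apart by DNA methylation that is set in the germ line at a control region and is kept in body cells. Many imprinted genes lie in clusters that share such a region. A set of imprinted genes is expressed together in embryonic and growing tissues and is known as the imprinted gene network, in which the zinc finger factor Plagl1 regulates several other members. Mest is read from the paternal copy, encodes a protein of the alpha/beta hydrolase fold in the endoplasmic reticulum, and is known in mouse white fat for a level that follows the expansion of the depot. The microRNA gene Mir335 lies in an intron of Mest, and Copg2 lies next to it on the opposite strand.

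The start regions of Mest, of its neighbour Copg2 and of Dio3 are printed here because these genes carry the contrast described below, a large difference at Mest and Dio3 and a small one at Copg2. Each window holds 250 bases before and 50 bases after a RefSeq transcript start in build GRCm38.p6, and capitals mark the hexamer TGCCGC or its reverse complement GCGGCA, the core of the site that the imprint-keeping factor ZFP57 reads when it is methylated. Mest has a window at chr6:30733256-30733555 on the plus strand and another at chr6:30737800-30738099 on the plus strand; a further window that starts 3 bases later is left out. Copg2 is at chr6:30896745-30897044 on the minus strand, and Dio3 is at chr12:110278980-110279279 on the plus strand.
Mest, upstream start: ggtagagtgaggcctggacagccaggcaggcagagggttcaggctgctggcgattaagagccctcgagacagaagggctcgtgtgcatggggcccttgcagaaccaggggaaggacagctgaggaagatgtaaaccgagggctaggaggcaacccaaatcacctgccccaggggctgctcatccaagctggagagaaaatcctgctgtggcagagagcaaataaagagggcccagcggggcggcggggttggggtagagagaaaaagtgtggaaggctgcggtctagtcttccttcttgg
Mest, downstream start: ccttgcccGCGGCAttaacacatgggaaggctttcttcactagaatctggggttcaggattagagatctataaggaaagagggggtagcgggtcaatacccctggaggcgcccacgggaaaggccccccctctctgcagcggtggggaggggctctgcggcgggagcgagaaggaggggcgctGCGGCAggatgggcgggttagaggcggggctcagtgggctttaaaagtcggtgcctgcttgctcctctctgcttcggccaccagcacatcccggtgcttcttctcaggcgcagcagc
Copg2: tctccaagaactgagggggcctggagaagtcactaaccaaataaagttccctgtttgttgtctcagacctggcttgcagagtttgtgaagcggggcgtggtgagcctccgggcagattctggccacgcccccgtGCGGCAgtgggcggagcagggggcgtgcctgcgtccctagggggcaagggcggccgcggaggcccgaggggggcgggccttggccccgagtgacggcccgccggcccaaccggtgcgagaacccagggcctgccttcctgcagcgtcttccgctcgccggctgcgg
Dio3: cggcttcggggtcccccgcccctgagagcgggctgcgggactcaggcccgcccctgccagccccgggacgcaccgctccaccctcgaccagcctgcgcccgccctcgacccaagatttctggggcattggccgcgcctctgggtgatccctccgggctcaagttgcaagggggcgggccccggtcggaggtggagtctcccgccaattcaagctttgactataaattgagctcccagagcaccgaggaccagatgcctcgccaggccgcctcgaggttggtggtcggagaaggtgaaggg
The downstream Mest window holds 2 of these hexamers and 17 CpG sites, the upstream window 0 hexamers and 8 CpG sites. The Copg2 window holds 1 hexamer and 25 CpG sites, and the Dio3 window 0 hexamers and 25 CpG sites. Over all 32851 promoter windows of this length, 11.6% hold the hexamer on either strand, and the median window has 7 CpG sites. Of the 10 genes, 7 had a window; that of Plagl1 and 1 of the windows of Meg3 also held the hexamer, and those of Peg3, Dlk1 and Ndn did not. A match is a match of letters, and methylation was not measured here.

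Mest intensity was 2356, 2500.1 and 2176 on HBC arrays 1, 2 and 3, and 114, 129.9 and 111 on the LBC arrays. All HBC arrays lay far above all LBC arrays, and the lowest HBC value was 16.8 times the highest LBC value. The group means were 2344 ± 162 in HBC against 118 ± 10.2 in LBC (SD, n = 3 arrays each), a ratio of 19.8. On the log2 scale the difference was 4.14 (SE 0.088, 95% interval 3.96 to 4.32), at rank 4 of all genes from the top. Within each group the arrays stayed close together, with a coefficient of variation of 6.92% in HBC and 8.62% in LBC. The LBC mean lay above the 90th percentile of the dim reference, 84.5. On each LBC array, however, Mest lay below the median of all clusters, which was 134, 134.6 and 130.7. Mest in LBC may therefore be near background, and the size of the ratio is uncertain. With LBC replicate 1 alone standing for LBC, the log2 difference was 4.18.

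Of the 10 genes, Mest was the 1 gene called higher in HBC, none was called lower and 9 were not called, while 2.54% of all genes were called higher and 1.13% lower (3.67% in either direction). The methods' t-test with the same adjustment called Mest as well and no other. Since Mest was chosen from this contrast, nothing is read from its place in the count. The log2 differences of the 9 other genes ran from -0.35 to 0.30, with a median of -0.02. Their median absolute log2 difference was 0.14, against 0.12 over all genes. For all 9, the 95% confidence interval from limma on all arrays lay inside a 1.5-fold change in either direction. Intervals were not computed for the alternative runs, where Plagl1 reached -0.40 (SE 0.113) without LBC replicate 2. Meg3 and Peg10 each reached 0.40 with LBC replicate 1 alone. Peg3 was dim, so its interval holds little information. In 5 of the 10 genes the groups did not overlap, with HBC above LBC for Mest, Meg3 and Sgce and below it for Peg3 and Plagl1, where 35.2% of all genes did not overlap, 10.1% with HBC above and 25.1% with HBC below.

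**Figure D1:**
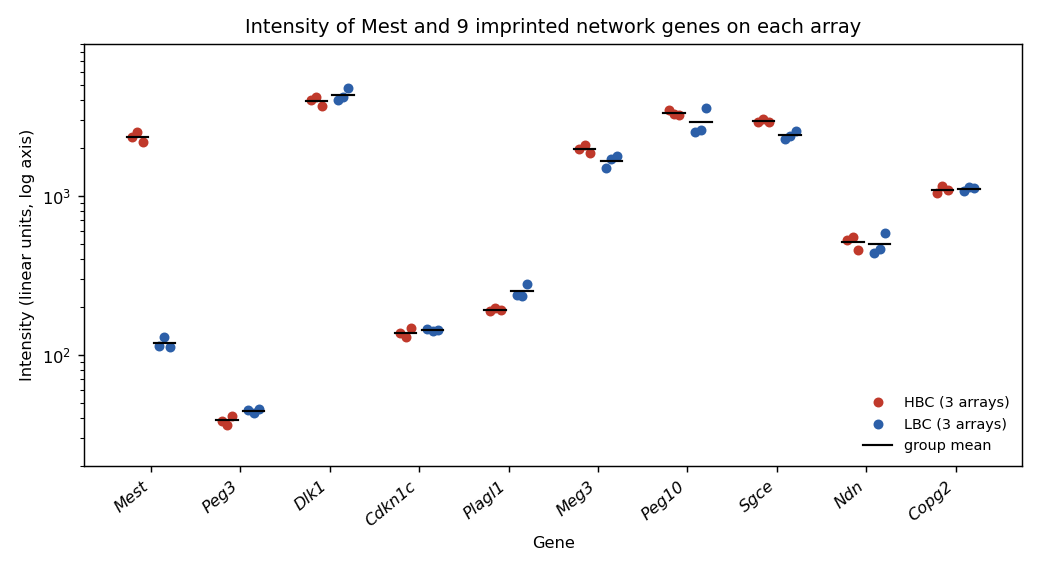
Intensity (linear units on a log axis) of Mest and the 9 network genes on each array, with HBC in red (3 arrays), LBC in blue (3 arrays) and a black line at each group mean. Mest is near 2344 in HBC and 118 in LBC, while the group means of every other gene lie close together; heights of different genes are not comparable.

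None of the genes around Mest was called. Copg2, which encodes a gamma subunit of the COPI coat of Golgi vesicles and overlaps the end of Mest in RefSeq, read 1040.5, 1155 and 1078 in HBC and 1063, 1127 and 1124 in LBC. The groups overlapped fully, at means of 1091 ± 58.4 and 1105 ± 35.9 (SD, n = 3 each). The log2 difference was -0.02 (SE 0.085, 95% interval -0.19 to 0.15). Its sign depended on the scaling of the arrays, at 0.04 after cyclic loess normalization and 0.05 after median centring, and it was 0.04 with LBC replicate 1 alone.

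Mir335, the microRNA gene inside Mest, had a cluster that read 142, 127 and 142 in HBC and 148, 152 and 144 in LBC, with every HBC array below every LBC array. The log2 difference was -0.10 (SE 0.085, 95% interval -0.27 to 0.07), and it was not called. The cluster is annotated to the hairpin, and which of hairpin, precursor or mature RNA it reads was not tested. The mature arms are printed from RefSeq with the seed, bases 2 to 8, in capitals, since they differ in it and so belong to different seed families.
mmu-miR-335-5p, chr6:30741314-30741336 (GRCm38.p6, plus strand): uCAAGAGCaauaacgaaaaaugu
mmu-miR-335-3p, chr6:30741354-30741375 (GRCm38.p6, plus strand): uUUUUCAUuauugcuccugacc
Further along the locus, Klf14, an imprinted transcription factor gene linked to fat distribution, read 576 ± 13.8 in HBC against 654 ± 8.68 in LBC (SD, n = 3 each), with a log2 difference of -0.18 (SE 0.083), and was not called. Cep41, which encodes a centrosomal protein, had a log2 difference of 0.05, and the carboxypeptidase gene Cpa4 one of 0.00044. Of the 11 genes nearest to Mest and Copg2 in the gene order, 5 on each side with a cluster of their own, log2 differences ran from -0.18 to 0.24. Of 11 noncoding RNA genes of imprinted loci, Mir335 among them, 7 were measured and 0 called by limma, with 0 at an unadjusted p under 0.05 and 0 by the methods' t-test, and log2 differences ran from -0.10 to 0.16.

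Neighbours at the other loci were not called either. Of the 71 neighbours of the 10 genes, 0 were called higher and 0 lower by limma, at background shares of 2.54% and 1.13%. The methods' t-test called 0. An unadjusted p under 0.05 was held by 17, of which 0 also passed the fold. At the adjusted p and any fold, 2 were higher and 1 lower, where 6.93% and 11.4% of all genes were. Log2 differences of the 71 ran from -0.26 to 0.40, with a median of -0.08 against -0.07 over all genes. The range of the dim reference took in 22 of the 71 in both groups, so a difference in these would be hard to see. Pon3, a paraoxonase gene beside Sgce, was at the upper end with a log2 difference of 0.40 (SE 0.084), and Cd81, a tetraspanin gene of the Cdkn1c region, had 0.39 (SE 0.087); both passed the adjusted p and missed the fold.

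**Figure D2:**
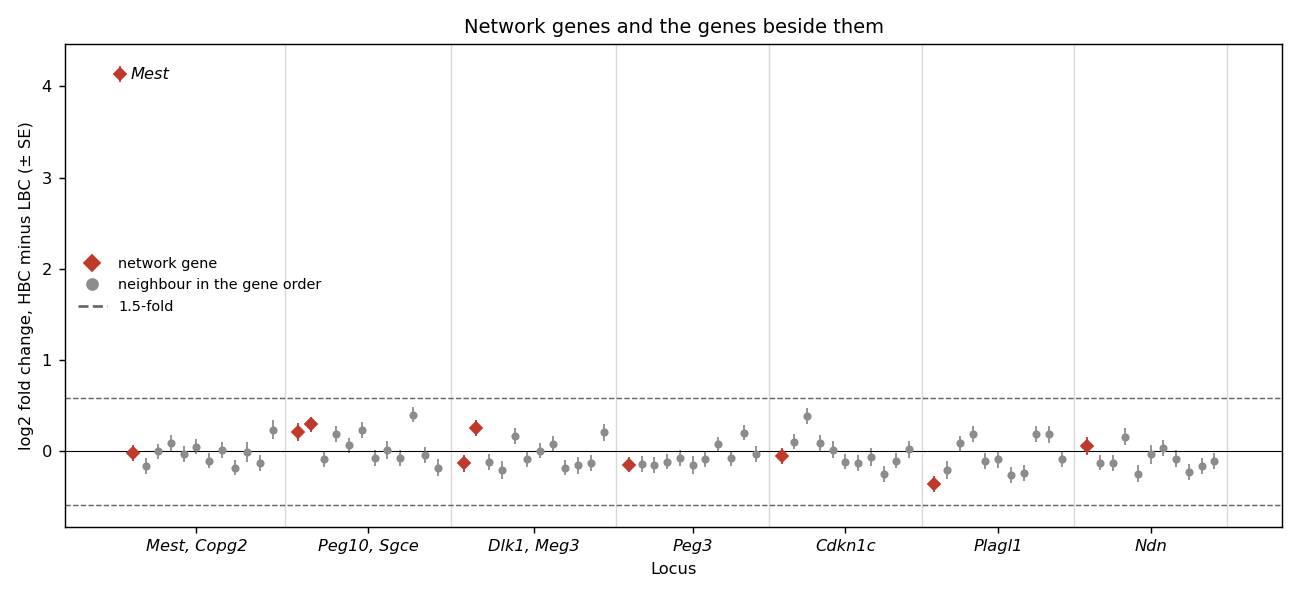
Log2 difference in intensity + 16 between HBC and LBC with SE bars, for the network genes (red diamonds) and their neighbours in the gene order (grey circles) at 7 loci; dashed lines mark a 1.5-fold change. Mest stands at 4.14, and all neighbours lie between -0.26 and 0.40.

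Neither of the zinc finger genes Plagl1 and Peg3 was called. Plagl1, the zinc finger factor that activates other network genes and slows cell growth, read 189, 197 and 189.6 in HBC and 238, 234 and 280.04 in LBC. Every HBC array lay below every LBC array, at means of 192 ± 4.59 and 251 ± 25.6 (SD, n = 3 each). The log2 difference was -0.35 (SE 0.088, 95% interval -0.53 to -0.17), under the fold threshold, and it stayed between -0.26 and -0.30 under the other scalings of the arrays. With LBC replicate 1 alone it was -0.29.
Peg3, a paternally expressed zinc finger gene, read 38.5, 35.9 and 41.2 in HBC and 44.7, 42.9 and 45.2 in LBC. Both groups lay within the dim reference, so the signal holds little information on Peg3. Its log2 difference was -0.14 (SE 0.084, 95% interval -0.32 to 0.03), and -0.15 with LBC replicate 1 alone.

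At the locus of Dlk1 and Meg3, Dlk1 and Meg3 differed by less than 1.5-fold and the gene at the far end of the domain by more. Dlk1, a transmembrane protein of preadipocytes that restrains fat cell formation, read 4015, 4182 and 3653 in HBC and 4022, 4184 and 4782 in LBC, and the groups overlapped. The log2 difference was -0.13 (SE 0.090, 95% interval -0.31 to 0.05). It ran from -0.18 to -0.06 when 1 array was left out, the latter without LBC replicate 3, and was -0.03 with LBC replicate 1 alone. Meg3, a long noncoding RNA of the maternal copy, read 1956, 2083 and 1866 in HBC and 1485, 1689 and 1765 in LBC. The HBC arrays lay above the LBC arrays, at means of 1968 ± 109 and 1647 ± 145 (SD, n = 3 each), and the log2 difference was 0.26 (SE 0.089, 95% interval 0.08 to 0.44), under the fold threshold. With LBC replicate 1 alone it was 0.40, over 1.5 times as large.

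Dio3, which encodes the type 3 deiodinase that inactivates thyroid hormone and is imprinted at the far end of the same domain, was higher in HBC. It read 558, 554 and 477 in HBC and 60.1, 66.2 and 87.2 in LBC. All HBC arrays lay above all LBC arrays, the lowest being 5.48 times the highest LBC value. The means were 529.7 ± 45.5 and 71.1 ± 14.2 (SD, n = 3 each), a ratio of 7.45, and the log2 difference was 2.66 (SE 0.100, limma adjusted p = 4.97e-19). The LBC mean lay within the dim reference, so the size of the ratio is uncertain. Without LBC replicates 2 and 3 the log2 difference was 2.84.

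Between them, Dlk1 and Dio3 enclose a long run of noncoding RNA genes. Of 47 genes with a cluster of their own from Dlk1 to Dio3, a span chosen after Dio3 had been seen, 40 were microRNA hairpins. Dio3 was the 1 gene called, and the log2 differences of the 46 others ran from -0.20 to 0.50, with a median of 0.14. Rtl1, a retrotransposon-derived gene, had 0.08 (SE 0.085), and the noncoding RNA Rian 0.15 (SE 0.090). The hairpin next before Dio3 in this order, Mir369, had the highest of these values, at 91.9 ± 15.3 in HBC against 59.7 ± 5.46 in LBC (SD, n = 3 each). Its LBC mean lay within the dim reference, as did both group means of many other hairpins, so differences in these would be hard to see. Of the 46, 7 passed the adjusted p at any fold, all higher in HBC, where 6.93% of all genes did so.

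**Figure D3:**
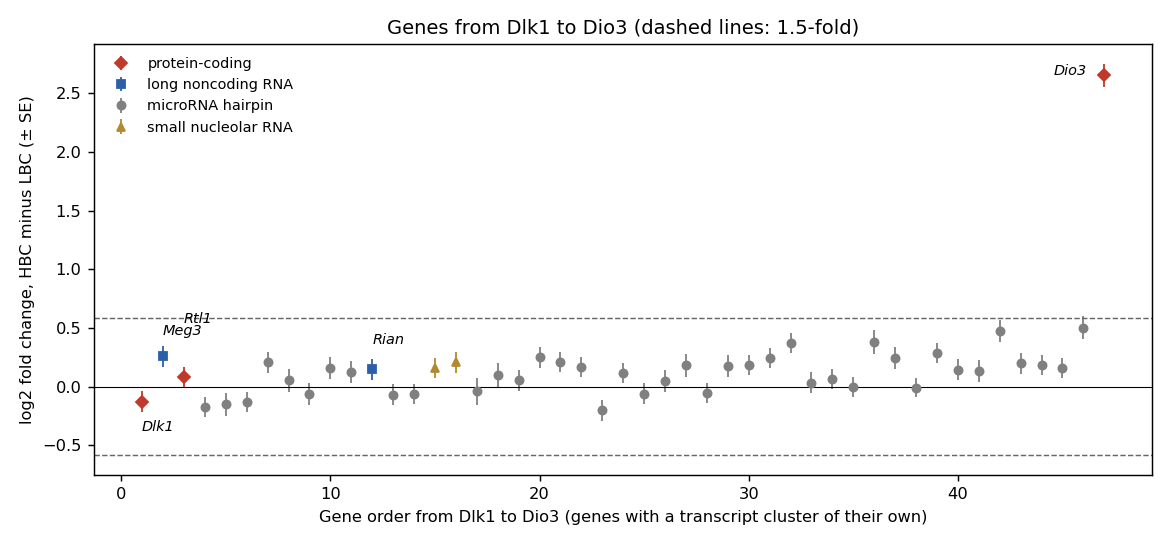
Log2 difference in intensity + 16 between HBC and LBC with SE bars, for 47 genes in RefSeq order from Dlk1 to Dio3; colour and shape give the kind of gene, and dashed lines mark a 1.5-fold change. Dio3 stands at 2.66 and the 46 others between -0.20 and 0.50.

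Peg10 and Sgce, which share a start region and are read from the paternal copy in opposite directions, were both slightly higher in HBC by their means. Sgce, the epsilon subunit of the sarcoglycan complex of the cell membrane, read 2914, 3056 and 2887 in HBC and 2274, 2378 and 2548 in LBC. All HBC arrays lay above all LBC arrays, and the log2 difference was 0.30 (SE 0.085, 95% interval 0.12 to 0.47), under the fold threshold, and 0.37 with LBC replicate 1 alone. Peg10, a gene derived from a retrotransposon, read 3467, 3273 and 3199.9 in HBC and 2499, 2605 and 3562 in LBC. The groups overlapped because LBC replicate 3 lay above all HBC arrays. The log2 difference was 0.21 (SE 0.103) with all arrays, 0.12 without LBC replicate 1, 0.15 without LBC replicate 2, 0.37 without LBC replicate 3 and 0.40 with LBC replicate 1 alone.

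The growth-restraining genes Cdkn1c and Ndn were close to even. Cdkn1c, which encodes the cyclin-dependent kinase inhibitor p57, read 136, 129 and 148 in HBC and 146, 140.03 and 144 in LBC, with overlapping groups. The log2 difference was -0.05 (SE 0.085, 95% interval -0.22 to 0.12), and its sign turned under every other scaling, at 0.02 after quantile normalization and 0.04 after cyclic loess normalization. It was -0.08 with LBC replicate 1 alone. Ndn, the MAGE family gene of necdin, a growth suppressor of neurons and preadipocytes, read 528, 553 and 457 in HBC and 437, 464 and 583 in LBC. The widest spread was in LBC, and the log2 difference was 0.06 (SE 0.099, 95% interval -0.15 to 0.26). Without LBC replicate 3 it was 0.18, without LBC replicate 1 it was -0.02, and with LBC replicate 1 alone 0.22.

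None of the other network genes with a cluster of their own was called higher with Mest. H19 had no cluster, and Gnas only a shared one. A cluster shared by Supt6 and Mir675, which H19 hosts, was higher in HBC, at 1.94 on the log2 scale. Which of these genes that cluster reads was not tested, and its values are given under other observations. Of 8 such genes, 6 had a cluster of their own. Of the 6, 0 were called higher by limma and 2 (33.3%) lower, at background shares of 2.54% and 1.13%. The methods' t-test also called 0 higher, since it called these 2 genes alone. The list was written with earlier results of these arrays known, so nothing is read from its shares. Gatm, the enzyme of the first step of creatine synthesis, read 237, 255 and 223 in HBC and 723, 741 and 866 in LBC. The groups lay far apart, at means of 238 ± 16.2 and 777 ± 78.3 (SD, n = 3 each), and Gatm fell by 1.64 on the log2 scale (SE 0.090, limma adjusted p = 3.85e-15). Dcn, the gene of the matrix proteoglycan decorin, read 2999.7, 3026 and 2775 in HBC and 4799, 4831 and 5516 in LBC. It fell by 0.78 on the log2 scale (SE 0.087, limma adjusted p = 3.97e-08). With LBC replicate 1 alone the log2 differences were -1.54 for Gatm and -0.71 for Dcn. Both genes are imprinted in the mouse placenta, and whether they are in these cells was not measured.
Igf2, the fetal growth factor, averaged 102 in HBC and 103 in LBC, with a log2 difference of -0.0047 (SE 0.092) whose sign turned with the scaling. Its receptor and antagonist Igf2r had 0.12 (SE 0.089), the insulin receptor adaptor Grb10 0.02 (SE 0.090), and the amino acid transporter Slc38a4 -0.09 (SE 0.084). None of these 4 was called.

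Over both lists of other imprinted genes, 57 of 70 had a cluster of their own; 1 was called higher, 3 were called lower and 53 were not called. The 1 gene called higher, 1.75% of the 57, was Dio3, at a background of 2.54%, and the 3 called lower, 5.26% of the 57, were Gatm, Dcn and Htr2a, at a background of 1.13%. Htr2a, a serotonin receptor gene, had 383 ± 37.3 in HBC against 639 ± 101 in LBC (SD, n = 3 each), a log2 difference of -0.71 (SE 0.099, limma adjusted p = 2.34e-06). It was not called by the methods' t-test (adjusted p = 0.080), without LBC replicate 3 (-0.58) or with LBC replicate 1 alone (-0.58). Nothing is read from the shares of the 57, since the lists were written with earlier results of these arrays known. The median log2 difference of the 57 genes was -0.04, against -0.07 over all genes. Of the 57, 14 lay within the dim reference in both groups.

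**Figure D4:**
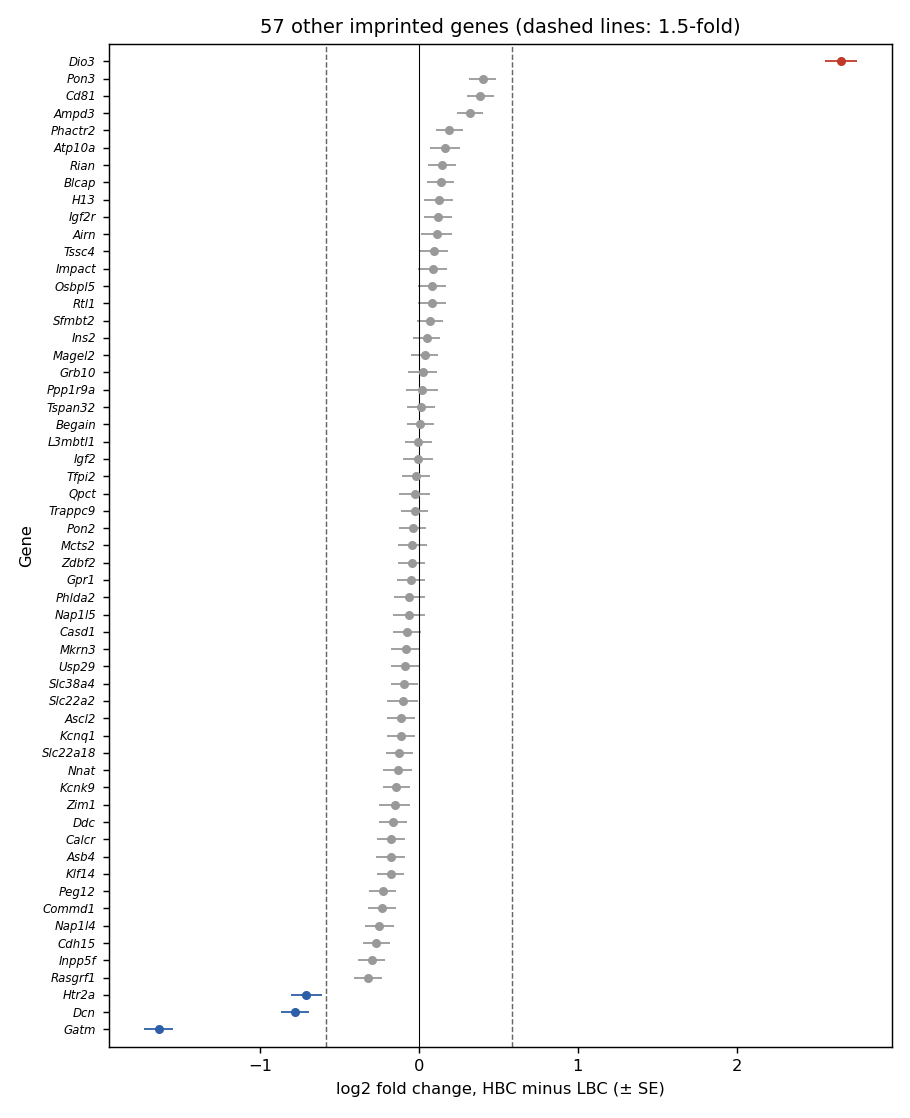
Log2 difference in intensity + 16 between HBC and LBC of the 57 other imprinted genes measured, with SE bars from 3 arrays per group; dashed lines mark a 1.5-fold change. Dio3 in red was called higher in HBC, Gatm, Dcn and Htr2a in blue lower, and the 53 in grey were not called.

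Patterns over the 6 arrays were compared with that of Mest, and the 5 most alike genes by each measure are named. None of these was on the lists of imprinted genes. The lists hold 9 network genes and 57 other imprinted genes among the 19937 genes compared. At that share, finding none among so few genes is likely in advance, so nothing is read from their absence. By Pearson r of log2(intensity + 16), the highest were Sparcl1, a matrix protein gene, Endod1, the peptide transporter gene Tap2, Ccn5 and E330013P04Rik, all at r from 0.9995 to 0.9997. Such values are common here, since r is set by the difference between the groups: 246 of 19937 genes reached r above 0.99. By the size of the difference as well, the nearest were Gm4951, Ifit3b, Iigp1, Oas2 and BC023105, whose centred log2 values lay within 0.27 to 0.31 of Mest as a root mean square. Ifit3b, Iigp1 and Oas2 are interferon-inducible genes. Among the network genes, Sgce came nearest by r, at 0.94, and Plagl1 was farthest, at -0.92, while in size all 9 were at least 1.92 away. These values describe 6 arrays of 2 populations and carry no test.

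**Figure D5:**
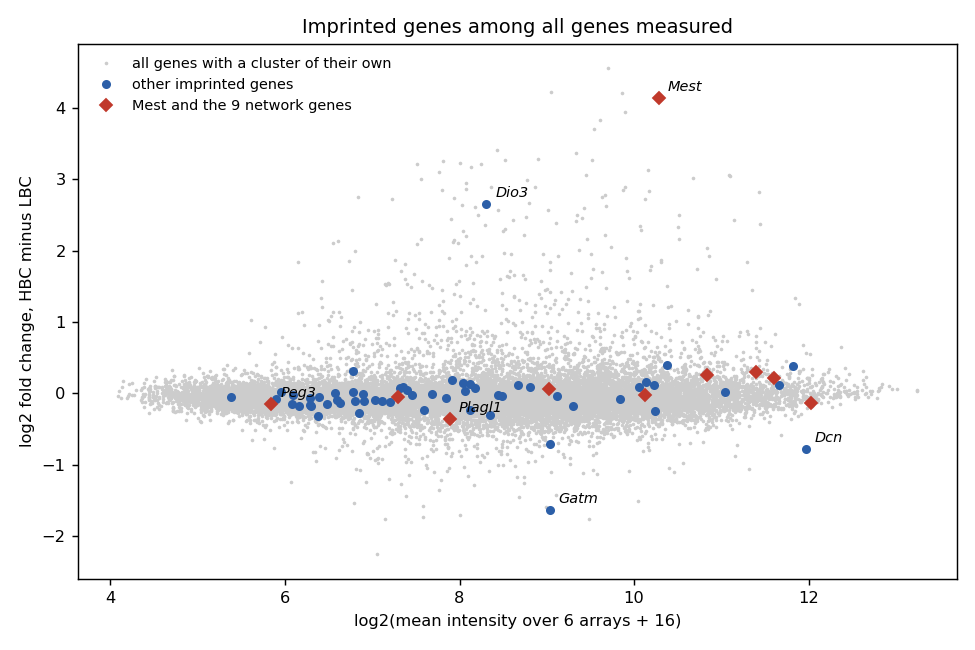
Log2 difference between HBC and LBC against log2(mean intensity over 6 arrays + 16) for 19938 genes, with Mest and the 9 network genes as red diamonds and the 57 other imprinted genes as blue circles. Mest is at 4.14, Dio3 at 2.66, Gatm at -1.64 and Dcn at -0.78, and the 9 other network genes lie between -0.35 and 0.30. Of all genes, 507 were called higher and 225 lower.

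The factors that keep or erase imprints showed small differences. Of 19 genes of imprint maintenance and DNA methylation, 0 were called higher and 0 lower by limma, at background shares of 2.54% and 1.13%. The methods' t-test called 0, and 3 had an unadjusted p under 0.05. These 3 also passed the adjusted p at any fold, all lower in HBC, where 11.4% of all genes did so. Zfp57, the factor that reads the hexamer printed above, had 1052 ± 55.7 in HBC against 1419 ± 116 in LBC (SD, n = 3 each), a log2 difference of -0.42 (SE 0.088). Hells, a chromatin remodeller needed for DNA methylation, had -0.41 (SE 0.090), and Uhrf1, which brings the maintenance methyltransferase to newly made DNA, -0.26 (SE 0.088). Dnmt1, the maintenance methyltransferase, had -0.15 (SE 0.089). Proliferation markers lay on the same side, with 11 of 12 measured, none of them called, and log2 differences from -0.30 to -0.02. Of the 11, 7 had an unadjusted p under 0.05. The adjusted p at any fold was passed by 4, all lower in HBC, where 11.4% of all genes did so. The summed intensity of these markers ran from 18877 to 20282 in HBC and from 20373 to 25750 in LBC. Their part in the values of the imprint factors was not tested.

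Few relatives of the network genes by protein family passed the fold. Among 25 alpha/beta hydrolases, the protein family of Mest, Ephx1, the microsomal epoxide hydrolase, was the 1 gene called, at 646 ± 44.1 in HBC against 369 ± 3.42 in LBC (SD, n = 3 each), a log2 difference of 0.78 (SE 0.085, limma adjusted p = 2.48e-08) that was 0.79 with LBC replicate 1 alone. Of the 25, 11 had an unadjusted p under 0.05, and 6 passed the adjusted p at any fold in the higher and 2 in the lower direction, where 6.93% and 11.4% of all genes did so. After Ephx1, the largest of these were Abhd14b at 0.54 (SE 0.087), Abhd16a at 0.49 (SE 0.087) and Abhd17c at -0.45 (SE 0.091). Of 14 paralogs of the network genes measured, 0 were called by limma, at background shares of 2.54% higher and 1.13% lower, and 0 by the methods' t-test. Among these paralogs, 3 had an unadjusted p under 0.05, and log2 differences ran from -0.13 to 0.41. Copg1, the other gamma subunit of the COPI coat, had 0.17 (SE 0.089), and Sgcb, the beta sarcoglycan, 0.41 (SE 0.091). All 8 genes of the COPI coat had log2 differences between 0.05 and 0.44. Limma called 0 of them, at the same background shares, the methods' t-test called 0, and 2 had an unadjusted p under 0.05.

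Fat cell genes were uneven beside Mest. Of 11 adipocyte markers measured, 2 (18.2%) were called higher in HBC and none lower, at background shares of 2.54% and 1.13%. This list too was written with earlier results of these arrays known, so nothing is read from its shares. At an unadjusted p under 0.05 there were 6, and 5 passed the adjusted p at any fold, all higher in HBC, against 6.93% of all genes. Lpl, the lipase that takes up fat from lipoproteins, had 1961 ± 59.7 in HBC against 537 ± 38.9 in LBC (SD, n = 3 each), and rose by 1.84 on the log2 scale (SE 0.086, limma adjusted p = 7.46e-17). Cebpa, a transcription factor of fat cell formation, rose by 0.85 (SE 0.085, limma adjusted p = 3.83e-09). With LBC replicate 1 alone the log2 differences were 1.93 for Lpl and 0.86 for Cebpa. The other 3 that passed the adjusted p missed the fold: the adipokine gene Retn, at 187 ± 5.36 in HBC against 120 ± 11.4 in LBC (SD, n = 3 each), had 0.577 (SE 0.087), the fatty acid carrier Fabp4 had 0.42 (SE 0.093), and Pparg, the main regulator of fat cell formation, had 0.33 (SE 0.087). Adipoq and Lep, which mark mature fat cells, lay within the dim reference in both groups, at 43.0 and 40.8 in HBC and 40.7 and 46.1 in LBC. Over the 11 markers, log2 differences ran from -0.21 to 1.84, with a median of 0.06. Their summed intensity ran from 6967 to 7099 in HBC and from 4288 to 4986 in LBC, and Lpl adds much to that gap. The part of these markers in the Mest difference was not tested. Of 3 genes known to vary with Mest in mouse fat, Sfrp5 and Bmp3 were not called, at log2 differences of 0.12 (SE 0.096) and -0.16 (SE 0.091), and Npr3, a clearance receptor for natriuretic peptides, fell by 0.90 (SE 0.092, limma adjusted p = 5.67e-09), with -0.97 for LBC replicate 1 alone.
Markers of preadipocytes fitted the label of the cells in part. Pdgfra had 4096 in HBC and 3166 in LBC, Pdgfrb 2699 and 1874 and Col1a1 4690 and 3685, each higher in HBC at the adjusted p but under the fold. Cd34 went the other way, at 134 ± 6.81 in HBC against 189 ± 7.29 in LBC (SD, n = 3 each), with a log2 difference of -0.45 (SE 0.084), and Thy1 had -0.14 (SE 0.084). Dpp4 and Pi16 lay within the dim reference. Of 10 measured, 4 passed the adjusted p at any fold in the higher and 1 in the lower direction, where 6.93% and 11.4% of all genes did so. Limma and the methods' t-test called 0, at background shares of 2.54% higher and 1.13% lower by limma, and 7 had an unadjusted p under 0.05. Of macrophage, endothelial and lymphocyte markers, 10, 8 and 7 were measured and 0 called by limma, at the same background shares. The methods' t-test called 0, and 4, 2 and 3 had an unadjusted p under 0.05. Summed macrophage markers, 5 of them dim in both groups, ran from 863 to 890 in HBC and from 970.1 to 1031 in LBC. For endothelial markers, 6 of them dim, the sums were 603 to 689 and 596 to 728, and for lymphocyte markers, 3 of them dim, 526 to 563 and 580.2 to 631. The leukocyte gene Ptprc had 59.8 in HBC and 69.9 in LBC, within the dim reference. Among 6 mesothelial markers, Msln was lower in HBC, with a log2 difference of -1.20 (limma adjusted p = 1.23e-12) at 72.6 in HBC and 187 in LBC, and no other was called. The HBC mean lay within the dim reference, so the size is uncertain, and the gene is not tested when a mean above 100 is asked of both groups. The difference was -1.18 with LBC replicate 1 alone. The summed intensity of these 6 ran from 901 to 931 in HBC and from 932 to 982 in LBC, no marker of any list was at 0, and the part of such cells in the Mest difference was not tested.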

How the data were processed

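Total RNA of 3 HBC and 3 LBC technical replicates was amplified, labelled with biotin and hybridised to Affymetrix mouse gene arrays. The study's methods name a later version of the array than the one whose annotation the row identifiers match; gene names follow that annotation. The deposited intensity values, 1 per transcript cluster on a linear scale, were written by Affymetrix Expression Console in the hands of the authors, per the submitters' processing notes. The sources used here do not give the software version, how probes were summarised or how arrays were scaled. No scanner files were used.

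Of 35556 clusters, 21789 carried 1 gene symbol, 1621 several and 12146 none; genes with several clusters were read from the brightest. Symbols were matched to RefSeq of GRCm38.p6, of which the coordinates of the printed sequences alone are given. Groups were fitted without a replicate block with limma 3.58.1 in R 4.3.3 on log2(intensity + 16), over 19938 genes, with 24.9 prior against 4 residual degrees of freedom, so the exponent of a very small p-value depends on the prior. The fit was tested on simulated data. The number of arrays limits the precision.

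All 10 genes, with all clusters, were named; from the neighbours and 15 lists, all called genes up to 8 per list, every other network gene measured, and the 5 genes most like Mest by each measure. Zfp57, Hells, Uhrf1, Dnmt1, Rtl1, Rian, Mir369, Klf14, Retn, Fabp4, Pparg, Cd34, Thy1, Abhd14b, Abhd16a, Abhd17c and further genes not called were named after their values were seen. The genes and lists were chosen with earlier results of these data known. The olfactory reference, the Dlk1 to Dio3 span and leaving out LBC replicates 2 and 3 together were added after seeing the data. The alternatives were 3 scalings, 2 filters, 2 added constants, 2 variance priors, 2 other cluster choices, all clusters, the methods' t-test, a replicate block, other fold thresholds and leaving out each array.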

Additional observations from a re-analysis of the deposited data

How the results depend on the processing

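Mest kept its call in every alternative run, with log2 differences from 3.83 to 4.30, and from 4.09 to 4.198 when 1 array was left out. The counts over the 10 genes, their neighbours and the other imprinted genes were unchanged or within 1.5 times except as follows. Without a fold threshold, 3655 genes were called, 6.93% of all genes higher and 11.4% lower. Of the 10 genes, 3 were then higher and 1 lower, and nothing is read from this count. Of the 57 other imprinted genes, 4 were higher and 6 lower, and of the 71 neighbours 2 higher and 1 lower. At a fold above 2, 280 of 19938 genes were called, 236 higher and 44 lower, and 1 other imprinted gene was lower. With a mean intensity above 100 in both groups, 0 other imprinted genes were called higher, because Dio3 falls below 100 in LBC, and Msln, below 100 in HBC, is not tested either; limma over all genes called 1, and so did the methods' t-test. Leaving out 1 array, 710 to 784 genes were called, against 732, and 2 to 3 other imprinted genes lower, against 3.

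Signs turned for genes that were not called: Igf2 had 0.063 after quantile normalization, 0.085 after cyclic loess, 0.067 after median centring and from -0.083 to 0.049 leaving out 1 array, and Grb10 from -0.035 to 0.092 leaving out 1 array. Over all alternatives, 8 values of other named genes lost their call, 5 at a fold above 2 and 3 of Htr2a, given above; the cause of the latter was not tested. Array numbers gave no pairing, since deviations from the group mean had r of -0.10, -0.24 and -0.50 between arrays of equal number. The replicate block left Mest at 4.14 and the count at 732 genes. Dim signal limits Peg3, Dio3 in LBC and many microRNA hairpins, and may limit the size of the Mest ratio.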

Other observations

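Some imprinted genes were covered by clusters that the annotation shares between several genes, so these values belong to no gene of the report and cannot be given to 1 of the genes sharing them. The cluster annotated to both Mir675, a microRNA hosted by the imprinted noncoding RNA H19, and Supt6, an elongation factor gene, read 286, 297 and 264 in HBC and 51.9, 66.8 and 68.1 in LBC. All HBC arrays lay above all LBC arrays, and the log2 difference was 1.94 (SE 0.101, limma adjusted p = 6.88e-06 over all 35556 clusters). Which of the genes the probes read was not tested.

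The cluster of Gnas and Gnasas1, the imprinted locus of a stimulatory G protein subunit, read 2775, 2857 and 2807 in HBC and 2568, 2695 and 2994 in LBC, with a log2 difference of 0.03. The cluster of Snurf and Snrpn, at the locus that also holds Ndn, averaged 204 ± 2.29 in HBC against 279 ± 27.6 in LBC (SD, n = 3 each), a log2 difference of -0.42 (SE 0.085), under the fold threshold. The cluster of Mirg and Mir410, between Dlk1 and Dio3, averaged 319 ± 17.5 in HBC against 241 ± 11.5 in LBC (SD, n = 3 each), a log2 difference of 0.38 (SE 0.078), also under it. The cluster of Cdkn1a, a paralog of Cdkn1c, and 4930567H12Rik had a log2 difference of 0.55 (SE 0.082), just under it.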
